A study of Caenorhabditis elegans with 47 samples.

Results

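The fungus-induced protein genes (fip), the genes related to them (fipr) and the antibacterial factor genes (abf) of Caenorhabditis elegans were followed in worms expressing 3 different transgenes. The genes were taken by name alone, as every symbol of the array's annotation made of fip, fipr or abf and a number. By this rule 18 of the 17118 genes with a probe set of their own were members, of which 5 were fip genes, 8 were fipr genes and 5 were abf genes. The study compared worms labelled Abeta, GFP::degron and GFP, in 15, 16 and 16 samples, each measured on 1 Affymetrix array. Abeta is the amyloid beta peptide known from the plaques of Alzheimer's disease, GFP is the green fluorescent protein of a jellyfish, and a degron is a short stretch by which cells recognise a protein to be broken down. All worms were raised at 16 °C on plates with OP50 bacteria until early in the third larval stage and were then shifted to 25 °C. Samples were taken at the shift (T0) and 4, 8, 12, 16 and 20 hours later (T4 to T20). Per strain there was 1 array at T0, T4 and T20 and there were 4 at T8 and T16, while T12 had 4 arrays of Abeta worms and 5 each of GFP::degron and GFP worms. The promoters that drive the transgenes, the strain backgrounds and the number of lines behind each label were not stated in the labels. A strain difference therefore cannot be told apart from a difference in background, and no animal was reported as infected.

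The outer epithelium of this worm, the epidermis, answers infection by the fungus Drechmeria coniospora and wounding of the cuticle by making small secreted peptides. The best studied are the NLP and CNC peptides of the nlp-29 and cnc-2 gene groups. The fip and fipr genes encode further small secreted peptides and are named after members found among the genes induced by that fungus. They lie in several tandem groups of near copies. The abf genes encode cysteine-rich peptides like the defensins of other animals and are related to antibacterial factors of the roundworm Ascaris. ABF-2 is made in the pharynx, the feeding organ, and kills bacteria and yeast in the test tube. In the epidermis the signal runs from the receptor DCAR-1 through the G protein GPA-12 and protein kinase C (TPA-1) to the adaptor TIR-1 and the PMK-1 MAP kinase cascade, and from there to the STAT-like factor STA-2 and its partner SNF-12. A parallel route uses the TGF-beta ligand DBL-1 and the SMA proteins.

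The 18 genes were carried by 18 probe sets, and fip-2 had a second one. Another 5 probe sets named several genes and are described apart. Whether a probe set naming 1 gene also binds near copies of it was not tested. A level may therefore include signal from such copies. The RefSeq gene table of assembly WBcel235 held 42 genes of these names, of which 26 were on some probe set, 8 of them only on shared ones, and 16 were on none. Values are log2(intensity + 1), called the level below, and a level is compared only with levels of the same probe set, since probe sets differ in how well they bind. In 13 genes the mean level over the 47 arrays was at least 4, and in abf-3, abf-4, fip-3, fip-4 and fipr-16 it was between 2.52 and 3.97. On 44 to 46 of the 47 arrays abf-4, fip-3, fip-4 and fipr-16 lay under an intensity of 16, so that little can be read from their changes. RNA came from whole worms, in which fewer cells of a type and less RNA per cell cannot be told apart.

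GFP T8 replicate 3 was dimmer than all other arrays. Its median intensity was 20.3, against 60.1 to 108.7 on the other 46, and its share of values below an intensity of 16 was 43.8%, against 11.3% to 26.1%. Counts of members called in comparisons of strains over T8, T12 and T16 are therefore given with and without it. Differences of single genes are given both ways for only some of them. Differences are given in log2 after subtracting the median of all genes, with the standard error (SE). The adjusted p is that of the difference before this subtraction. The median was 0.18 in Abeta minus GFP and 0.19 in GFP::degron minus GFP. A gene was called higher or lower when its Benjamini-Hochberg adjusted p over all 17118 genes was under 0.05 in a limma fit of 38 arrays, from T8, T12 and T16. The strains shared their arrays across these comparisons, so the comparisons are not independent of each other.

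**Figure D1:**
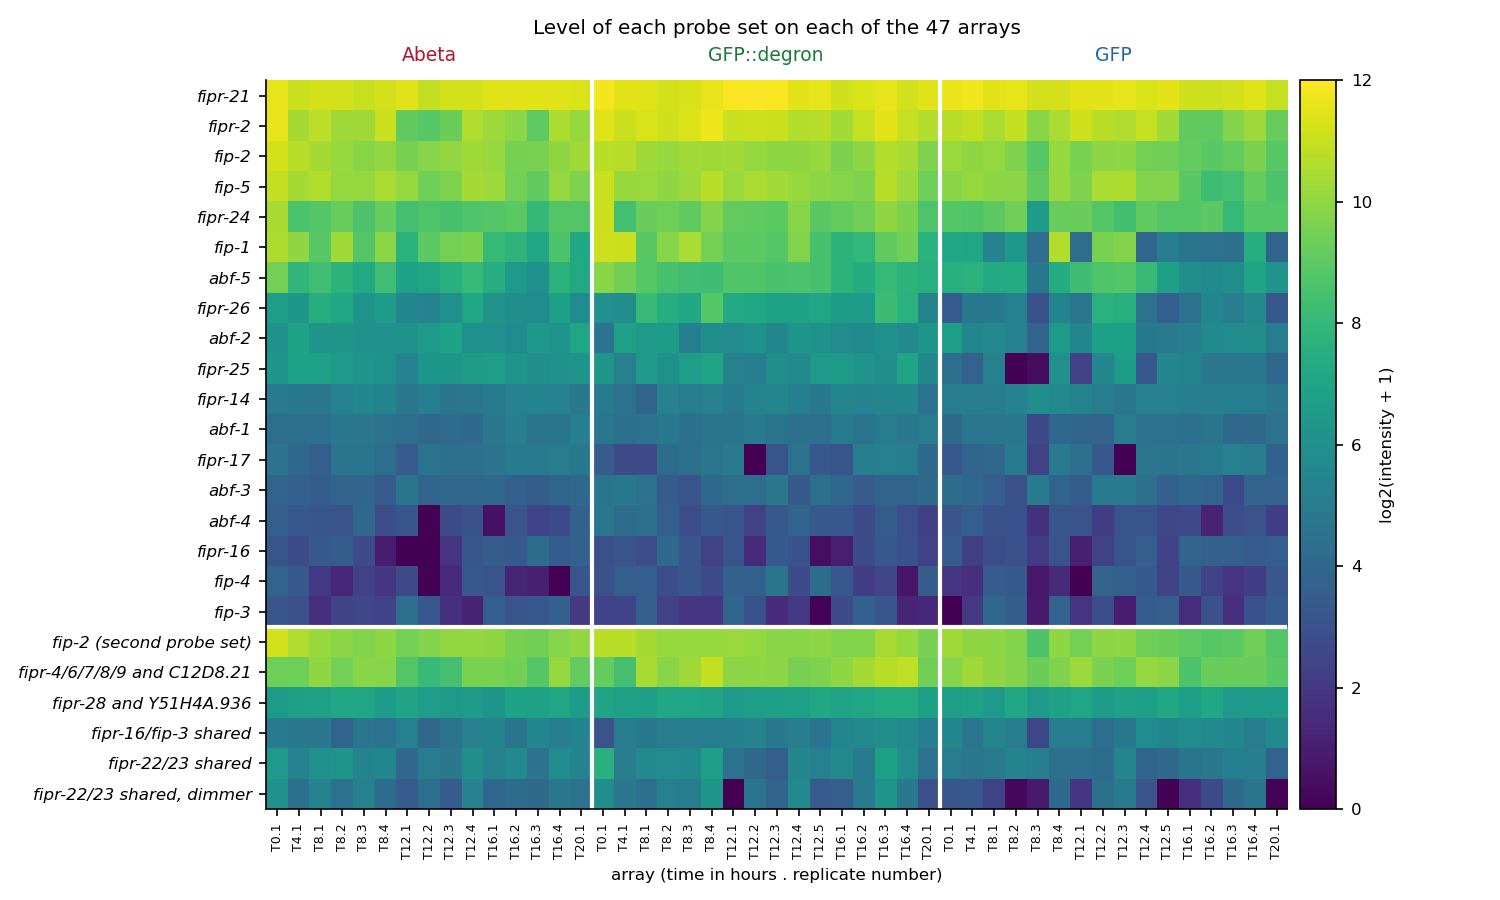
Level, as log2(intensity + 1) by colour, of the 18 genes (upper rows, brightest first) and of the second and shared probe sets (lower rows) on the 47 arrays. Columns are arrays, grouped as Abeta, GFP::degron and GFP and ordered by time in hours and replicate number. The row of fip-1 is at 7.05 or more on all Abeta and GFP::degron arrays and between 3.88 and 7.20 on 12 of the 16 GFP arrays.

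Of the fip, fipr and abf genes, 8 of 18 were higher in GFP::degron worms than in GFP worms over T8, T12 and T16 and 0 were lower. They were fip-1, fip-2 and fip-5 among the fip genes, fipr-2, fipr-24, fipr-25 and fipr-26 among the fipr genes, and abf-5 among the abf genes. Of all genes, 14.5% were called higher in this comparison and 3.55% lower. The median unshifted difference of the 18 was 0.61, beside 0.19 for all genes. Without the dim array 8 of 18 were again higher, beside 15.2% of all genes, and they were the same genes.

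Of the 8, fip-1 differed most. In Abeta worms its level was 8.89, 10.29, 8.78 and 9.93 at T8, 7.66, 8.98, 9.50 and 9.65 at T12, and 8.03, 7.83, 7.05 and 8.65 at T16. In GFP::degron worms it was 8.91, 9.80, 10.48 and 9.51 at T8, 8.96, 8.96, 8.81, 9.71 and 8.52 at T12, and 7.78, 7.93, 9.09 and 9.46 at T16. In GFP worms it was 5.35, 6.39, 4.29 and 10.62 at T8, 4.27, 9.59, 9.79, 4.06 and 5.03 at T12, and 4.67, 4.48, 4.42 and 7.46 at T16. The arrays of Abeta and GFP::degron worms covered one range, while those of GFP worms split into 9 arrays at or under 6.39 and 4 at or above 7.46. The GFP::degron and GFP arrays did not overlap at T16 and overlapped at T8 and T12. The GFP::degron minus GFP difference was 2.74 (SE 0.593), a fold of 6.67, with an adjusted p of 0.00139 in limma, and 13 of 13 GFP::degron arrays lay above the GFP mean of their time once every array had been centred. Without the dim array the difference was 2.62 (SE 0.597).

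The 4 bright GFP arrays for fip-1 were T8 replicate 4, T12 replicates 2 and 3, and T16 replicate 4. They were singled out after their values were seen, and no test was made of them. The T12 pair differed from the other GFP arrays of T12 beyond fip-1. Its shares of values below an intensity of 16 were 22.7% and 26.1%, beside 12.8%, 12.7% and 15.4%. The GFP::degron arrays of T12 with the same replicate numbers also had the highest shares of their group. These were 22.5% and 20.0%, beside 15.6%, 14.3% and 18.1%. The part of these shares in the fip-1 levels was not tested. On GFP T8 replicate 4 fip-1 reached 10.62, above every other array of T8, T12 and T16. On the same 4 arrays fipr-25 had levels of 6.02, 5.60, 6.56 and 4.84, and fipr-26 had 5.42, 7.67, 7.57 and 5.66. For fipr-26 the pair of T12 arrays stood above the other 3 GFP arrays of T12, which had 4.72, 4.54 and 3.64. In fip-2, fip-5, fipr-26, abf-2 and abf-5, too, the 4 arrays were the highest GFP arrays of their time. The abf-2 levels on them were 6.49, 6.80, 6.83 and 5.93. In fip-5, for example, the T12 pair had 10.46 and 10.50, beside 9.67, 9.72 and 9.76 on the other GFP arrays of T12. In fipr-2 and fipr-24 they were not: at T12 the levels of fipr-24 on the pair were 8.79 and 8.38, beside 9.26, 9.09 and 8.78.

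Among the fipr genes, fipr-26 lies next to fip-6 in the RefSeq order with 0 protein-coding genes between them, and fip-6 was on no probe set. Its level in the GFP::degron arrays of T8 to T16 was 6.62 at the lowest, 7.20 at the median and 8.86 at the highest. In the GFP arrays the same values were 3.01, 5.11 and 7.67. The groups were apart at T8 and T16 and overlapped at T12, where the GFP arrays split as described. The difference was 2.08 (SE 0.355), a fold of 4.23, with a limma adjusted p of 0.000115, in 13 of 13 arrays.

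For fipr-25 the lowest, median and highest levels were 5.14, 6.19 and 7.01 in GFP::degron worms and 0.055, 4.84 and 6.56 in GFP worms. The lowest GFP values, 0.055 and 0.38, were those of T8 replicates 2 and 3, and the next lowest was 2.33. The GFP::degron minus GFP difference was 1.89 (SE 0.473), with a limma adjusted p of 0.00334, in 13 of 13 arrays. Differences of such low values on the log2(intensity + 1) scale are sensitive to the constant added, and with log2(intensity + 16) fipr-25 was again called higher.

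Smaller differences were found in fipr-2 and fipr-24, which are both bright. The lowest, median and highest levels of fipr-2 were 10.33, 11.05 and 11.71 in GFP::degron worms and 9.06, 10.47 and 11.11 in GFP worms. Its GFP::degron minus GFP difference was 0.65 (SE 0.185), with a limma adjusted p of 0.00266, in 12 of 13 arrays. Those of fipr-24 were 8.92, 9.28 and 9.99 in GFP::degron worms and 6.57, 8.84 and 9.40 in GFP worms, where the lowest was the dim array. Its difference was 0.50 (SE 0.209), with a limma adjusted p of 0.0222, and 0.42 (SE 0.135) without the dim array. The strains overlapped at T12 in both genes, and at T8 in fipr-24.

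Of the fip genes other than fip-1, fip-2 had levels of 9.64, 10.16 and 10.64 at the lowest, median and highest in GFP::degron worms and 8.86, 9.57 and 10.15 in GFP worms. At T8, T12 and T16 alike, the lowest GFP::degron array was above the highest GFP array. After centring, 11 of 13 arrays were above the GFP mean, and the difference was 0.47 (SE 0.134) with a limma adjusted p of 0.00138. The second probe set of fip-2 gave 0.46 (SE 0.128), so both agree within their errors. The levels of fip-5 were 9.68, 10.21 and 10.77 in GFP::degron worms and 8.28, 9.73 and 10.50 in GFP worms. Its difference was 0.53 (SE 0.163), with a limma adjusted p of 0.00314, in 9 of 13 arrays. By time it was 0.094 (SE 0.292) at T8, 0.18 (SE 0.261) at T12 and 1.30 (SE 0.292) at T16, where alone the groups did not overlap.

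Of the abf genes only abf-5 was called with all 38 arrays. Its lowest, median and highest levels were 7.44, 8.49 and 8.87 in GFP::degron worms and 4.84, 7.33 and 8.78 in GFP worms. The strains were apart at T8 and at T16 and overlapped at T12, where 2 GFP arrays reached 8.71 and 8.78. The difference was 1.09 (SE 0.250), a fold of 2.13, with a limma adjusted p of 0.00103, in 13 of 13 arrays. The lowest GFP level was that of the dim array, and without it the difference was 1.02 (SE 0.204).

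**Figure D2:**
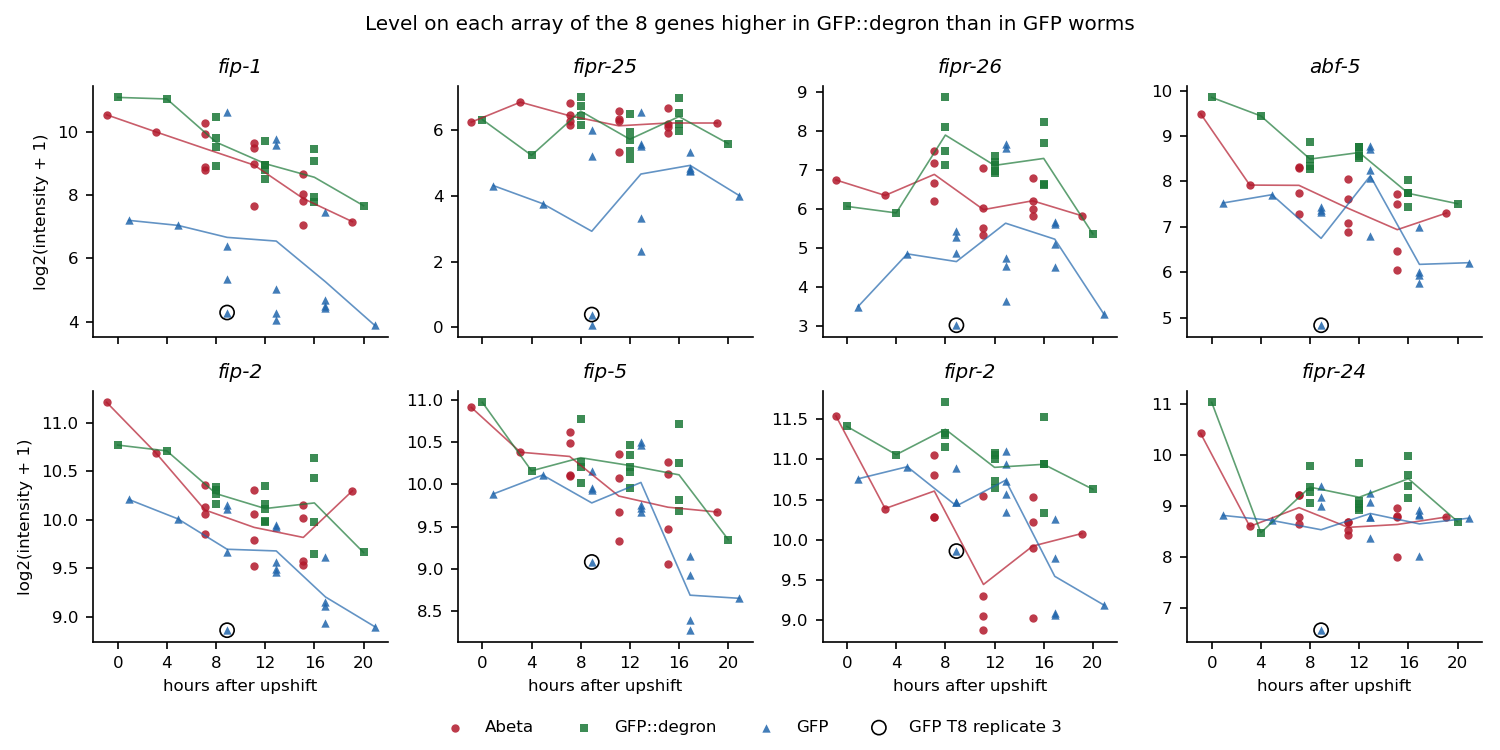
Level on each array, as log2(intensity + 1), of the 8 genes that were higher in GFP::degron worms than in GFP worms, against hours after the upshift. Points are arrays of Abeta (red circles), GFP::degron (green squares) and GFP worms (blue triangles), shifted sideways by strain; lines join the means and the ring marks the dim array. In fip-1 the GFP arrays of T8 and T12 split, with 10.62, 9.59 and 9.79 beside values of 6.39 and less.

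Taken at single times, 8 calls of members were made over the 9 comparisons of strains, each in GFP::degron minus GFP. At T8 fipr-25, fipr-26 and abf-5 were higher (3 of 18, beside 10.4% of all genes called higher and 0.0876% called lower). At T16 fip-2, fip-5, fipr-2, fipr-26 and abf-5 were higher (5 of 18, beside 2.09% called higher and 3.34% called lower). The T16 call of fipr-26 was close to the threshold and was lost in 29 of 38 fits that left out 1 array, with a limma adjusted p of up to 0.185. That of abf-5 was lost without GFP T16 replicate 1, 2 or 3 or GFP::degron T16 replicate 1, 3 or 4, that of fip-2 without GFP T16 replicate 2 or GFP::degron T16 replicate 3 or 4, and that of fipr-2 without GFP T16 replicate 2 or GFP::degron T16 replicate 3. The T8 calls of abf-5 and fipr-25 were lost without the dim array or GFP::degron T8 replicate 4, and that of abf-5 also without GFP::degron T8 replicate 1. At T12 0 of 18 were called by limma, with 2 at an unadjusted p under 0.05, beside 0.00584% of all genes called higher. In the 6 comparisons of Abeta worms with the others at single times, limma called 0 of 18, with 1 to 5 at an unadjusted p under 0.05. Few of all genes were called there. In Abeta minus GFP they were 0.0351% higher at T8, and 0.0876% higher and 0.257% lower at T16. In Abeta minus GFP::degron they were 0.00584% higher and 0.0292% lower at T8, 0.0117% lower at T12, and 0.0117% higher and 0.0234% lower at T16.

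Without the dim array the T8 comparison of GFP::degron with GFP called fipr-26 alone, beside 1.07% of all genes, and the T16 comparison called 8 genes, adding fip-1, fipr-24 and abf-1, beside 14.5% of all genes. For abf-1 the T16 difference was 0.45, with levels of 4.97, 4.62, 5.05 and 4.82 in GFP::degron worms and 4.36, 4.62, 4.03 and 4.16 in GFP worms. In that fit fip-5 was also higher in Abeta than in GFP worms at T16, by 0.98 (SE 0.268), beside 1.62% of all genes.

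At the time of the upshift there was 1 array per strain, which allows no test. At T0 fip-1 had a level of 10.54 in Abeta, 11.09 in GFP::degron and 7.20 in GFP worms. The level of abf-5 was 9.49, 9.85 and 7.53 in the same order of strains, and that of fipr-26 was 6.74, 6.06 and 3.49. For fipr-24 it was 10.43, 11.04 and 8.82. In these 4 genes, and in the other 4 of the 8, the GFP array was the lowest of the 3.

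A stage score placed each array along the change between T8 and T16. It was built from the GFP arrays of these times over 500 genes with no member among them, so that part of the gap between GFP and the other strains comes with its making. It averaged 0.43 ± 0.214 in Abeta, 0.062 ± 0.336 in GFP::degron and 0.77 ± 0.0777 in GFP worms at T16 (SD, n = 4 each). On the T12 pair of bright GFP arrays it was -0.24 and -0.21, beside 0.18, 0.11 and -0.10 on the other GFP arrays of T12. The other bright arrays lay within their groups. GFP T8 replicate 4 had -0.18, beside -0.28, -0.093 and -0.025, and GFP T16 replicate 4 had 0.73, beside 0.69, 0.86 and 0.82. With this score as a covariate and without the dim array, 0 of 18 genes were called in GFP::degron minus GFP by limma, beside 0.187% of all genes. In that fit the fip-1 difference was 1.16 (SE 0.778) and the fipr-26 difference 1.23 (SE 0.462). Quantile normalization kept 8 of 18 higher and 0 lower, beside 17.5% of all genes called higher and 13.1% called lower.

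In Abeta minus GFP, 2 of 18 genes were higher and 0 were lower, beside 1.09% and 0.134% of all genes. They were fip-1 and fipr-25. The median unshifted difference of the 18 was 0.22, beside 0.18 for all genes. The Abeta minus GFP difference of fip-1 was 2.44 (SE 0.603), a fold of 5.42, with a limma adjusted p of 0.0224, in 12 of 12 Abeta arrays. The per-array levels given above overlapped at each of the 3 times, where the bright GFP arrays reached into the Abeta range. The lowest, median and highest levels of fipr-25 were 5.33, 6.29 and 6.84 in Abeta worms, against 0.055, 4.84 and 6.56 in GFP worms. Its difference was 1.92 (SE 0.482), with a limma adjusted p of 0.0220, in 12 of 12 arrays, and the groups overlapped at T12 alone.

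Other members of that comparison were not called. For fipr-26 the levels in Abeta worms ran over 5.32, 6.20 and 7.49 (lowest, median, highest), and the Abeta minus GFP difference of 1.02 (SE 0.362) had a limma adjusted p of 0.0867. That of abf-5 was 0.23 (SE 0.254) and that of fip-2 was 0.25 (SE 0.136). Without the dim array fip-1 and fipr-25 were called again, with 2.33 and 1.79, beside 2.68% of all genes. Quantile normalization added fip-2 and fipr-26, for 4 of 18, beside 6.49% of all genes called higher and 3.59% called lower. Leaving out GFP T16 replicate 3 left fip-1 with a limma adjusted p of 0.0502. Leaving out GFP T8 replicate 4, the array with the highest fip-1 level, gave 5 of 18 higher. The share of all genes is not set beside that count, so it is not a result about the members. With the dim array left out and the score as a covariate, 0 of 18 were called, beside 0.0818% of all genes, and the fip-1 difference was 1.46 (SE 0.649).

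Between Abeta and GFP::degron worms, 1 of 18 genes differed. It was fipr-2, which was lower in Abeta worms, beside 0.228% of all genes called lower and 0.0526% called higher. Its levels in Abeta worms were 10.81, 10.28, 10.28 and 11.06 at T8, 9.06, 8.88, 9.30 and 10.55 at T12, and 10.22, 9.90, 9.04 and 10.54 at T16. In GFP::degron worms they were 11.33, 11.15, 11.31 and 11.71 at T8, 11.01, 11.08, 11.05, 10.64 and 10.73 at T12, and 10.33, 10.95, 11.53 and 10.95 at T16. All Abeta arrays lay below all GFP::degron arrays at T8 and at T12, and the strains overlapped at T16. The Abeta minus GFP::degron difference was -1.07 (SE 0.188), a level at 0.477 of that in GFP::degron worms, with a limma adjusted p of 0.00248, in 12 of 12 arrays.

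The gene fipr-2 was called lower in Abeta worms under all alternatives tried for this comparison and with each of the 38 arrays left out, with differences of -1.18 to -0.96 over the 38. At T12 the Abeta arrays were below those of GFP too, where fipr-2 had 11.11, 10.73, 10.57, 10.95 and 10.35, apart from the Abeta array of 10.55. That Abeta minus GFP difference at T12 was -1.32 (SE 0.314), with a limma p of 0.000241 before adjustment and 0.363 after it.

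Without the dim array, abf-5 and fipr-24 were also lower in Abeta than in GFP::degron worms, for 3 of 18, beside 2.65% of all genes. The abf-5 difference was -0.86 (SE 0.202, limma adjusted p of 0.0137), and that of fipr-24 was -0.62 (SE 0.134, limma adjusted p of 0.00717), each in 12 of 12 arrays. At T12 the abf-5 levels of Abeta worms, 6.88, 7.09, 7.61 and 8.05, were all below those of GFP::degron worms, which were 8.75, 8.76, 8.55, 8.60 and 8.52. At T12 alone fipr-2 and fipr-21 were lower in Abeta worms in that fit, with differences of -1.46 and -0.57, beside 0.204% of all genes. The levels of fipr-21 there were 11.44, 10.88, 11.19 and 11.22 in Abeta worms and 11.88, 11.94, 11.87, 11.49 and 11.54 in GFP::degron worms, a small gap without overlap. With the dim array left out and the stage score added, fipr-2 and fipr-24 were lower, 2 of 18, beside 1.14% of all genes. Quantile normalization gave 3 of 18, beside 1.88% of all genes called lower and 1.04% called higher.

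**Figure D3:**
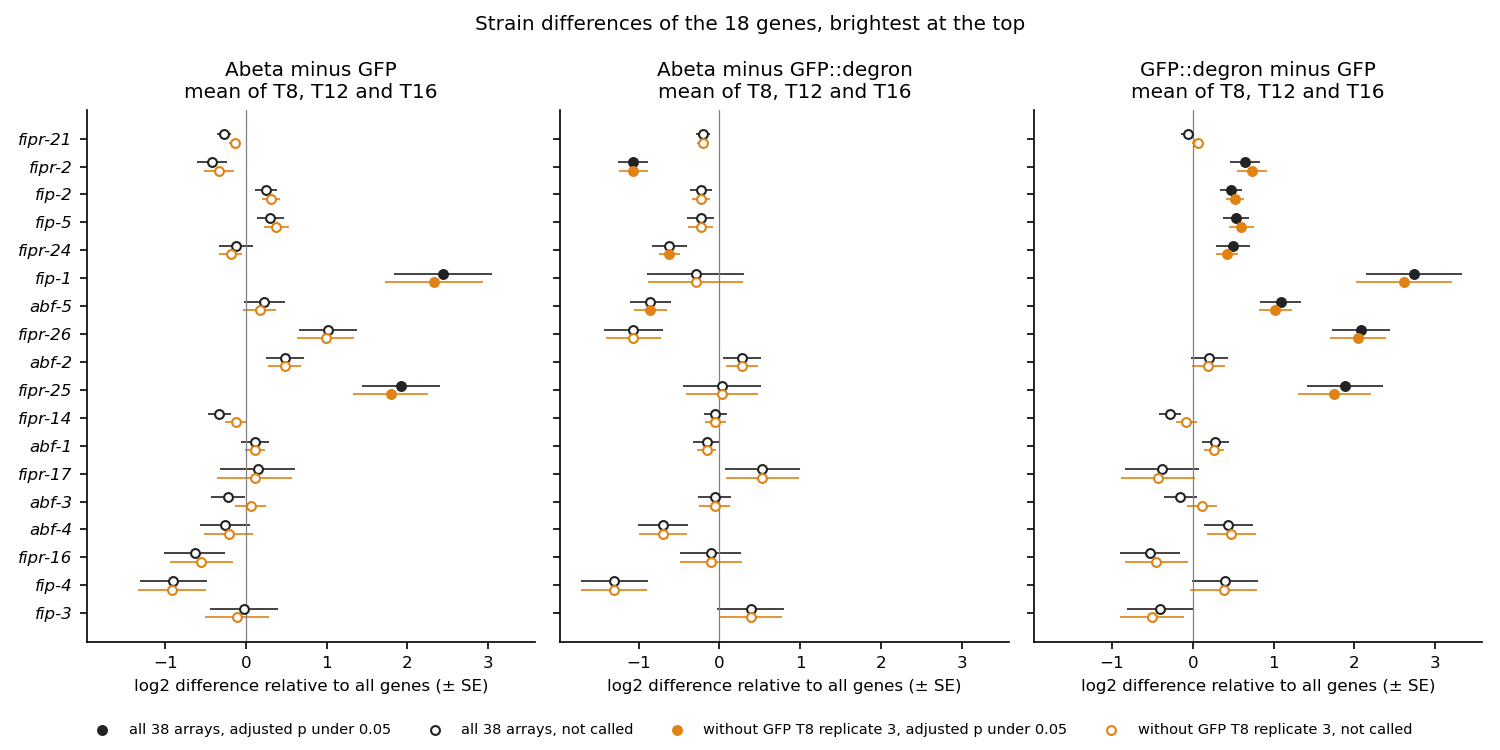
Difference between strains of each of the 18 genes, in log2 relative to the median of all genes, as the mean of T8, T12 and T16 with its SE. Panels are Abeta minus GFP, Abeta minus GFP::degron and GFP::degron minus GFP; black points use all 38 arrays, orange ones leave out the dim array, and filled points have an adjusted p under 0.05. The right panel has 8 filled black points, all to the right of 0, and the middle one has fipr-2 alone, at -1.07.

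Few members changed between T8 and T16. In GFP worms 1 of 18 genes was lower at T16 than at T8, beside 0.578% of all genes called lower and 15.3% called higher. It was fip-5, whose levels were 8.93, 8.28, 8.40 and 9.15 at T16 and 9.95, 9.93, 9.08 and 10.16 at T8. The times overlapped at the dim T8 array, and the T16 minus T8 difference was -1.42 (SE 0.292), with a limma adjusted p of 0.00764. Without the dim array 4 of 18 were lower, beside 12% of all genes. They were fip-5 with -1.18 (SE 0.290), fip-2 with -0.62 (SE 0.210), fipr-2 with -0.91 (SE 0.345) and abf-5 with -1.06 (SE 0.384). Quantile normalization gave 6 of 18 lower, beside 21.4% of all genes called lower and 13.5% called higher, and added fipr-14 and fipr-21 to those 4.

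In GFP::degron worms and in Abeta worms 0 of 18 were called by limma between T16 and T8, with 1 and 3 members at an unadjusted p under 0.05. Of all genes, 0.38% were called higher and 0.0292% lower in GFP::degron worms, and 4.53% and 0.105% in Abeta worms. The T16 minus T8 difference of fip-5 was -0.25 (SE 0.292) in GFP::degron worms and -0.57 (SE 0.292) in Abeta worms. For fip-1 it was -1.16 in GFP::degron, -1.55 in Abeta and -1.73 in GFP worms, each with an SE of 1.06. In Abeta worms the 4 fip-1 levels of T16, 7.05 to 8.65, were all below those of T8, 8.78 to 10.29. The differences between strains in the T16 minus T8 change were tested as interactions, of which 0 were called among the 18 genes for any of the 3 pairs, with 2 members, fip-5 and fipr-14, at an unadjusted p under 0.05 for GFP::degron against GFP. Of all genes, 0.00584% and 0.0935% were called higher and lower for that pair, 0.0117% lower for Abeta and GFP, and 0.00584% higher for Abeta and GFP::degron. The fip-5 interaction of those strains was 1.25 (SE 0.413), with a limma p of 0.0384 before adjustment and 0.559 after it.

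The arrays of T0, T4 and T20 extend the course to 20 hours, with the 3 strains as pairs. At T20, 5 of 18 genes were lower than at T0 and 0 were higher, beside 9.21% of all genes called lower and 14.3% called higher. They were fip-1, fip-2, fip-5, fipr-2 and abf-5. The median unshifted difference of the 18 was -0.39, beside -0.02 for all genes.

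The level of fip-1 at T20 was 7.16 in Abeta, 7.67 in GFP::degron and 3.88 in GFP worms, against 10.54, 11.09 and 7.20 in the same strains at T0. The change by strain was -3.38, -3.43 and -3.32 in the same order, before the shift by all genes. This gave a T20 minus T0 difference of -3.36 (SE 0.183), a level at 0.0974 of that at T0, with a limma adjusted p of 0.000108. That small SE comes from 3 pairs alone. With the spread taken from the replicated groups of the 47 arrays, the SE was 1.23 and the adjusted p 0.0527, while fip-2, fip-5, fipr-2 and abf-5 were called again and fipr-24 was added, for 5 of 18, beside 5.36% of all genes called lower.

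For abf-5 the levels at T20 were 7.30, 7.51 and 6.21 in Abeta, GFP::degron and GFP worms, against 9.49, 9.85 and 7.53 at T0. For fip-5 they were 9.67, 9.35 and 8.65, against 10.91, 10.97 and 9.89. For fip-2 they were 10.30, 9.66 and 8.90, against 11.21, 10.77 and 10.21. In all 3 genes each strain was lower at T20, and the differences were -1.93 (SE 0.360) for abf-5, -1.35 (SE 0.241) for fip-5 and -1.09 (SE 0.203) for fip-2, with limma adjusted p of 0.009998, 0.00825 and 0.00964. For fipr-2 the T20 levels were 10.08, 10.63 and 9.19, against 11.54, 11.41 and 10.76, with a difference of -1.25 (SE 0.328, limma adjusted p of 0.0340). Leaving out 1 strain lowered the count to 1, 3 or 4 of 18 (without Abeta, GFP::degron or GFP), and fip-1 was called each time. The call of fipr-2 was lost in all 3 of these fits, those of abf-5 and fip-2 in 2 each and that of fip-5 in 1. The counts are over all 18 members and can include one other than these 5. Quantile normalization also gave 5 of 18 lower, beside 21.3% of all genes called lower and 14% called higher.

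In T4 minus T0, 0 of 18 genes were called by limma and 1 had an unadjusted p under 0.05, beside 0 and 954 of all genes. That member was fipr-24, whose levels at T4 were 8.61 in Abeta, 8.48 in GFP::degron and 8.72 in GFP worms, against 10.43, 11.04 and 8.82 at T0. At T4 the 3 strains lay between 8.48 and 8.72. The T4 minus T0 difference was -1.57 (SE 0.476), with a limma p of 0.0180 before adjustment and 0.880 after it.

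**Figure D4:**
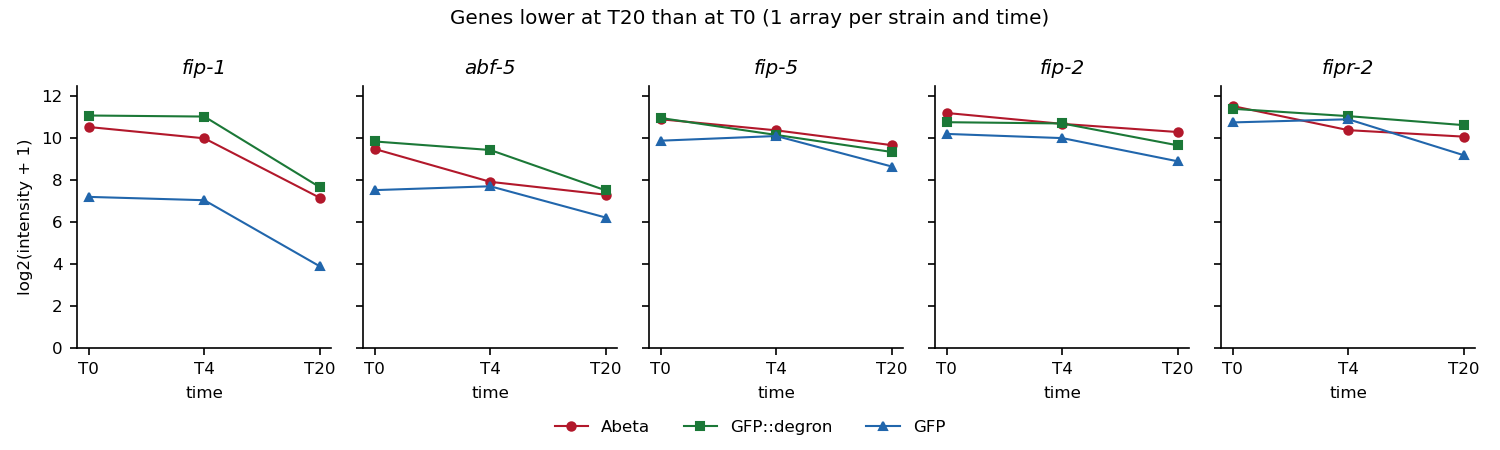
Level, as log2(intensity + 1), of the 5 genes that were lower at T20 than at T0, at T0, T4 and T20. Each point is 1 array of Abeta (red circles), GFP::degron (green squares) or GFP worms (blue triangles), and lines join the arrays of a strain. For fip-1 the 3 lines end at 7.16, 7.67 and 3.88.

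Apart from abf-5, the abf genes were dim or had ranges that overlapped between strains. Between T8 and T16, abf-2 had lowest, median and highest levels of 5.86, 6.19 and 6.97 in Abeta worms, 5.20, 5.97 and 6.64 in GFP::degron worms and 3.93, 5.66 and 6.83 in GFP worms. The ranges overlapped, and the Abeta minus GFP difference of 0.48 (SE 0.232) had a limma adjusted p of 0.130, with all 12 Abeta arrays above the GFP mean of their time. At T0 abf-2 stood at 4.55 on the GFP::degron array, beside 6.19 in Abeta and 6.72 in GFP worms, and at T4 at 6.88, beside 6.97 and 5.53.

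The gene next to abf-2 in the RefSeq order is abf-1, with 0 genes between them. Its levels were 4.08, 4.55 and 5.14 in Abeta worms, 4.39, 4.63 and 5.05 in GFP::degron worms and 2.62, 4.36 and 5.10 in GFP worms, and the GFP::degron minus GFP difference was 0.28 (SE 0.168, limma adjusted p of 0.0517). For abf-3 the lowest, median and highest levels were 3.45, 3.87 and 4.65 in Abeta, 3.13, 4.00 and 4.76 in GFP::degron and 2.69, 3.84 and 4.97 in GFP worms. For abf-4 they were 0.080, 2.92 and 4.04, then 2.33, 3.33 and 4.36, and 1.18, 2.98 and 3.22 in the same order. All these ranges overlapped. With all arrays none of abf-1, abf-2, abf-3 and abf-4 was called in any comparison. Over the 3 times abf-1 was called higher in GFP::degron worms than in GFP worms when GFP T8 replicate 1, 2 or 4, GFP T12 replicate 3 or GFP::degron T16 replicate 2 was left out, and abf-2 higher in Abeta than in GFP worms, by 0.55, without GFP T8 replicate 4. Quantile normalization called abf-4 lower at T16 than at T8 in Abeta worms.

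With all arrays, no block and the values as deposited, the members not yet described were not called in any comparison. The brightest of them, fipr-21, varied little, from 10.88 to 11.94 over the 38 arrays of T8 to T16. Its neighbour in the RefSeq order with 0 genes between them is fip-5, and the T20 minus T0 difference of fipr-21 was -0.41 (SE 0.233), against -1.35 for fip-5. For fipr-14 the levels of T8 to T16 lay between 3.85 and 5.92. For fipr-17 the medians were 4.58, 4.45 and 4.69 in Abeta, GFP::degron and GFP worms, with 1 array each of GFP::degron and GFP worms at 0.031 and 0.0051. The dim genes fip-3, fip-4 and fipr-16 stayed at or under 4.63 on the arrays of T8 to T16. The widest strain difference among them over the 3 times was that of fip-4 in Abeta minus GFP::degron, at -1.30 (SE 0.416), with a limma adjusted p of 0.277.

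The shared probe sets report groups of near copies, whose signals cannot be assigned to 1 gene. They were tested with all probe sets entered. The set of fipr-4, fipr-6, fipr-7, fipr-8, fipr-9 and C12D8.21 had lowest, median and highest levels of 8.07, 9.55 and 10.11 in Abeta worms, 9.54, 9.96 and 10.90 in GFP::degron worms and 8.63, 9.65 and 10.19 in GFP worms. It was lower in Abeta than in GFP::degron worms by a difference of -0.85 (SE 0.159, limma adjusted p of 0.00588, 12 of 12 arrays), and higher in GFP::degron worms than in GFP worms by 0.48 (SE 0.156, limma adjusted p of 0.00393). These are the directions of fipr-2.

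Both sets of fipr-22 and fipr-23 were higher in GFP::degron worms than in GFP worms, by 0.52 (SE 0.233) and 1.68 (SE 0.526), and lower at T20 than at T0, with differences of -1.76 (SE 0.458) and -2.52 (SE 0.565). The limma adjusted p were 0.0331 and 0.0139 for the strains and 0.0333 and 0.0201 for the times. In RefSeq order fipr-22 lies next to fipr-24, with 0 genes between. The set of fipr-28 and 1 other gene and that of fipr-16 and fip-3 were not called in these comparisons, with GFP::degron minus GFP differences of 0.010 (SE 0.114) and -0.042 (SE 0.223).

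Other peptide genes of the epidermal response were set beside them. Of 17 nlp and cnc genes listed, 13 had a probe set of their own. In GFP::degron minus GFP 11 of 13 were higher and 0 lower, beside 14.5% and 3.55% of all genes. Without the dim array 10 of 13 were higher, beside 15.2% of all genes. The 11 called with all arrays included cnc-7 with 2.85 (SE 0.494), cnc-2 with 2.24 (SE 0.442) and cnc-4 with 2.01 (SE 0.328), which are caenacin genes, and nlp-29 with 1.22 (SE 0.218). In Abeta minus GFP 6 of 13 were higher, beside 1.09% of all genes, again with cnc-7 at 2.55 (SE 0.503) and cnc-2 at 2.25 (SE 0.449). Between Abeta and GFP::degron worms 0 of 13 were called by limma, with or without the dim array. At T20, 4 of 13 were lower than at T0, beside 9.21% of all genes, namely cnc-2, cnc-6, nlp-28 and nlp-29.

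Of the 32 upstream regulators listed, 31 were on the array. In GFP::degron minus GFP 20 of 31 were higher and 0 lower, beside 14.5% and 3.55% of all genes. Without the dim array 22 were higher, beside 15.2% of all genes. The median unshifted difference was 0.58 over the 31 regulators, beside 1.08 over the 13 peptide genes. Among them, the STAT-like factor sta-2, which is also on the list of epidermal markers, differed by 1.08 (SE 0.249), the pseudokinase nipi-3 by 0.73 (SE 0.175), tpa-1 by 0.73 (SE 0.211), tir-1 by 0.72 (SE 0.222) and the receptor dcar-1 by 0.54 (SE 0.158). In Abeta minus GFP 0 of 31 were called by limma, beside 1.09% of all genes called higher and 0.134% called lower. Without the dim array 2 were higher, beside 2.68% of all genes. After quantile normalization 4 were called, beside 6.49% of all genes called higher and 3.59% called lower. None (0 of 31) were called in Abeta minus GFP::degron with all arrays. Without the dim array dcar-1, nipi-3, ptr-23, sma-9 and vhp-1 were lower, beside 2.65% of all genes. At T20, 14 of 31 were lower than at T0, beside 9.21% of all genes. Among these regulators were sta-2 with -1.56 (SE 0.262) and pmk-1 with -1.30 (SE 0.274).

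Markers of cell types moved in the same comparisons. In GFP::degron minus GFP, 6 of 10 epidermal, 8 of 8 pharyngeal and 9 of 11 neuronal markers were higher with 0 lower. Of the 11 intestinal markers 0 were called, and 1 of 10 body-wall muscle markers was higher and 3 were lower. Of all genes, 14.5% were called higher and 3.55% lower. Without the dim array 1 neuronal marker was lower, beside 9.33% of all genes. The summed intensity of the epidermal markers over T8 to T16 ran from 6241 to 9118 in GFP::degron worms and from 1727 to 8559 in GFP worms, where the lowest was the dim array and the next was 4830. For the pharyngeal markers it ran from 3627 to 7682 and from 1461 to 6114. In Abeta minus GFP, where fip-1 and fipr-25 were higher, 0 of 10 epidermal and 0 of 8 pharyngeal markers were called by limma. The neuronal marker cha-1 was higher there, by 0.30 (SE 0.125, limma adjusted p of 0.0486). Of all genes, 1.09% were called higher and 0.134% lower. After quantile normalization 3 epidermal markers and 1 pharyngeal marker were higher, beside 6.49% of all genes. The summed epidermal markers of Abeta worms ran from 4972 to 8231. At T20, 2 of 10 epidermal, 7 of 8 pharyngeal and 7 of 11 neuronal markers were lower than at T0, beside 9.21% of all genes. The intestinal marker pept-1, the body-wall muscle markers myo-3 and unc-22 and the molting genes nhr-25 and noah-2 were lower too. No listed marker stayed under a level of 4 on all arrays. Of the 13 molting genes 5 were higher in GFP::degron worms than in GFP worms, beside 14.5% of all genes (3 without the dim array, beside 15.2%). The part of tissue composition and stage in the differences of the fip, fipr and abf genes was not tested beyond the stage covariate.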

How the data were processed

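RNA of whole worms was hybridised as biotin-labelled cRNA, per the labels' protocols. The authors deposited 1 linear intensity per probe set and array, for 22625 probe sets and 47 arrays. Per the submitters' processing notes, Affymetrix Expression Console 1.1 was used; its algorithm and scaling were not stated there. The 77 control probe sets were left out. Of the rest, 20766 had 1 gene in the platform annotation, 887 had several and 895 had none. Where a gene had several probe sets the one of highest mean was taken, which left 17118 genes.

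Intensities were turned into log2(intensity + 1), which understates the change of dim genes, and fitted with limma 3.58.1 in R 4.3.3. The 38 arrays of T8, T12 and T16 were fitted with 1 mean per strain and time (9 groups, 29 residual degrees of freedom), and strain differences averaged the 3 times with equal weight. The 9 arrays of T0, T4 and T20 were fitted with the strain as a block (4 residual degrees of freedom). Variances were moderated with eBayes and p-values adjusted by Benjamini-Hochberg over all genes. The fits were tested on simulated data. Tables and plots used Python 3.11.15, pandas 2.3.3, numpy 2.4.6 and matplotlib 3.10.9.

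Samples were grouped by strain and time from their titles, which call the samples of a group biological repeats, and the number of arrays limits the precision. The members, the lists of regulators, peptide genes and markers, and the rule for named genes were chosen with earlier results of these data known. All members are named. Values by array, or the lowest, median and highest by strain, are given for members called with all arrays or without GFP T8 replicate 3 and for abf genes. Alternatives were quantile normalization, centring on the array median, a pseudocount of 16, a minimum mean level of 4, all probe sets, the replicate number as a block, the stage score, and leaving out arrays or strains. The pairing of replicate numbers was checked by the correlation of deviations from the group means. All pairs correlated by over 0.1 in GFP::degron and GFP arrays at T12 (0.136 to 0.331, 5 pairs) and in Abeta and GFP arrays at T16 (0.224 to 0.367, 4 pairs), so that numbers paired the arrays there, from the data and not the labels; a block within each time called 0 of 18 members by limma in both, as did the fit without it. In the other 7 comparisons of strains at 1 time some pairs correlated by less.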

Additional observations from a re-analysis of the deposited data

Results flagged for a closer look

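Single arrays that stood apart from the others of their group were looked for in 13 members, those called in a comparison with all arrays or without the dim array and all abf genes, by the gap to the nearest array over the range of the group. Of 117 groups, 12 were flagged, and chance flags about 1 in 20 groups. On the dim array, GFP T8 replicate 3, abf-4 had a level of 1.76 beside 2.98 to 3.22, abf-5 had 4.84 beside 7.33 to 7.44, and fipr-24 had 6.57 beside 8.998 to 9.401. Another 3 flags lay on other T16 arrays of GFP worms and are part of results given above: fip-1 had 7.46 on replicate 4 beside 4.42 to 4.67, fipr-25 had 5.35 on replicate 1 beside 4.75 to 4.84, and fipr-24 had 8.03 on replicate 3 beside 8.82 to 8.92. On that last array abf-3 had 2.69 beside 3.83 to 4.00. The other flags were abf-4 with 0.080 on Abeta T12 replicate 2 beside 2.80 to 3.21, abf-2 with 6.17 on GFP::degron T16 replicate 3 beside 5.72 to 5.79, and fipr-24 with 9.85 on GFP::degron T12 replicate 4 beside 8.92 to 9.10. In fipr-21 the flagged gaps were small, with 10.98 on Abeta T8 replicate 3 beside 11.18 to 11.22 and 11.32 on GFP T12 replicate 4 beside 11.50 to 11.55.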

How the results depend on the processing

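No result called with all arrays or without the dim array changed sign under the alternatives run for it. The stage score, made from the T16 minus T8 change of GFP worms, was not taken as an alternative for T16 minus T8; with it and without the dim array that change of fip-5 in GFP worms was 0.32, beside -1.42, and that of fip-1 was 2.08, beside -1.73, and neither was called in that fit. Of values that were not called, the abf-5 difference in Abeta minus GFP was -0.15 with the dim array left out and the stage score added, beside 0.23. Counts are members called of 18. The shares of all genes are not set beside them here, and those shares move with the setting too. In GFP::degron minus GFP at T16, for example, 2.09% of all genes were higher with all arrays and 14.5% without the dim array. The counts show how far the calls depend on the processing and are not results about the members alone. Quantile normalization gave 4 in Abeta minus GFP, 3 in Abeta minus GFP::degron, 2 for T16 minus T8 in Abeta worms, 6 for the same in GFP worms and 13 over the single times; without the dim array in addition, a setting chosen after seeing the data, it gave 3, 2 and 4 in Abeta minus GFP::degron and for T16 minus T8 in Abeta and in GFP worms. Centring on the array median gave 3 in Abeta minus GFP::degron and 1 and 6 for T16 minus T8 in Abeta and GFP worms. The stage score and the dim array left out together gave 0 in Abeta minus GFP and in GFP::degron minus GFP, 2 in Abeta minus GFP::degron and 3 over the single times. The causes were not tested. With 1 array left out at a time the counts ran from 1 to 5 in Abeta minus GFP (1 without GFP T16 replicate 3, 4 without GFP T8 replicate 1, 5 without GFP T8 replicate 4), from 1 to 3 in Abeta minus GFP::degron (3 without the dim array), from 8 to 9 in GFP::degron minus GFP, and from 1 to 4 for T16 minus T8 in GFP worms (4 without the dim array, 2 without GFP T8 replicate 1 or 4, GFP T16 replicate 4 or Abeta T12 replicate 4). Over the single times they ran from 4 to 18 (4 without GFP T16 replicate 2 or GFP::degron T16 replicate 3, 5 without GFP::degron T8 replicate 4 or T16 replicate 4, 18 without GFP T8 replicate 4), and with 1 strain left out from 1 to 4 for T20 minus T0. The counts of 0, for T16 minus T8 in Abeta and GFP::degron worms, the interactions and T4 minus T0, were 0 with each array or strain left out. With the replicate block the counts were 8 in GFP::degron minus GFP, 2 in Abeta minus GFP, 1 in Abeta minus GFP::degron and 9 over the single times. With a block for each number within each time, chosen after seeing the data, they were 8, 2, 1 and 11 in the same order, and fipr-14 was called lower in GFP::degron than in GFP worms at T8. The deviations of same-numbered arrays correlated by -0.231 to 0.367 over 37 pairs, and 20 correlated best with their own number. Limits: T0, T4 and T20 have 1 array per strain, dim members are near the background, and the scaling between arrays is unknown.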

Other observations

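The 4 GFP arrays with high fip-1 were set beside genes picked after their values were seen, as a check of the strain labels. Their gtnt-8 levels were 0.004 to 2.92, beside 7.03 to 8.71 on the GFP::degron arrays and 0.003 to 2.28 on the other 12 GFP arrays. Their npr-28 levels were 5.67 to 6.22, beside 4.09 to 5.38 on the Abeta arrays and 3.97 to 6.60 on the other GFP arrays. Low gtnt-8 set them apart from the GFP::degron arrays, and npr-28 set them apart from the Abeta arrays. Neither gene alone told GFP from both other strains. The Abeta arrays had gtnt-8 levels of 0.004 to 3.19, and the GFP::degron arrays had npr-28 levels of 5.68 to 6.615. The npr-28 level of 3.97 was that of the dim array, and the next lowest of the other GFP arrays was 5.42. The heat-shock gene hsp-70 had levels of 7.74 to 9.41 on these 4 arrays, beside 6.62 to 10.43 in Abeta, 7.68 to 10.05 in GFP::degron and 3.25 to 7.06 on the other GFP arrays. The caenacin gene cnc-7 had 4.24 to 6.21 on the 4 arrays and 0.024 to 4.22 on the other GFP arrays, and nlp-31 had 9.41 to 11.07 and 7.99 to 9.73.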
